A study of Mus musculus with 36 samples.

Results

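The 31 genes described here encode chemokine ligands, small secreted proteins that direct the movement of leukocytes. They form a list of genes named by function, and are 31 of the 27179 genes in the counts of whole tissue and lymphocyte preparations and of the 78275 genes in each table of CD8 cells. All 31 were found in both. Chemokines bind receptors on leukocytes: CXC ligands such as Cxcl1 draw neutrophils through CXCR2, the interferon-induced Cxcl9 and Cxcl10 draw activated T cells through CXCR3, and CC ligands act on monocytes, eosinophils and lymphocytes through a family of CCR receptors. In the small intestine, epithelial cells are a known source of Ccl20, Ccl28 and Cx3cl1, stromal cells of Cxcl12 and Cxcl13, and activated cytotoxic lymphocytes of Ccl3, Ccl4, Ccl5 and Xcl1.

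The study compared mice lacking lnc13, a long noncoding RNA (KO), with mice that carry it (WT). Poly(A) RNA had been sequenced from the small intestine. Intraepithelial lymphocyte (IEL) preparations, lamina propria lymphocyte (LPL) preparations and whole tissue came from gluten-challenged mice of both genotypes on the DQ8 background (lnc13-KO-DQ8 and lnc13-WT-DQ8), with 2 KO and 2 WT libraries for each of the 3 kinds of sample. DQ8, carried by both genotypes, is a human HLA class II molecule that presents gluten peptides. CD8 IELs of KO and WT mice were measured unstimulated (3 and 3 libraries) and in an IL-15 set (3 and 3 libraries), which the design text describes as CD8a+ IELs cultured for 48 h with this cytokine; the titles of both CD8 sets do not name DQ8. The comparisons ask which kind of sample held each ligand's RNA and whether that RNA differed between KO and WT. The genotype could not be checked by lnc13's own RNA, which was not analysed here. The libraries are called biological replicates in the titles, which do not say whether libraries with the same number came from the same mice. In bulk RNA, fewer cells of a type and less RNA per cell cannot be told apart.

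Of the 31 genes, 22 have a promoter entry in the RefSeq table for GRCm38.p6, and 5 are shown. They are those of Cxcl1, Cxcl2 and Cxcl3, ligands whose highest values all fell in 1 LPL library, and of the neighbouring interferon-induced Cxcl9 and Cxcl10. The same library also held the highest values of Cxcl10, Ccl20 and Ccl22, but not of Cxcl9. Each line gives the 250 bases upstream of the annotated start, 5′ to 3′ on the gene's own strand. Capitals mark 10 bases that match an NF-kB site: either the exact site, as in the capitals of Cxcl1, Cxcl2 and Cxcl3, or a looser form in which its bases 4, 5 and 8 may be any base, as in Cxcl9 and Cxcl10. In Cxcl10 capitals also mark an interferon-stimulated response element, searched as GAAA, any 2 bases and GAAA. Not every match to the looser form is in capitals. Cxcl2 also holds a lower-case match on the strand shown, and Cxcl1 a lower-case match on the opposite strand.
Cxcl1, chr5:90890995-90891244, plus strand: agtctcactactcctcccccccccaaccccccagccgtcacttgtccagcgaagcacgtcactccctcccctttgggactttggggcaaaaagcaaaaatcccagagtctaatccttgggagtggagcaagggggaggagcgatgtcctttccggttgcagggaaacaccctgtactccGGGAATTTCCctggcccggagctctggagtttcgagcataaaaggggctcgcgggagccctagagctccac
Cxcl2, chr5:90903649-90903898, plus strand: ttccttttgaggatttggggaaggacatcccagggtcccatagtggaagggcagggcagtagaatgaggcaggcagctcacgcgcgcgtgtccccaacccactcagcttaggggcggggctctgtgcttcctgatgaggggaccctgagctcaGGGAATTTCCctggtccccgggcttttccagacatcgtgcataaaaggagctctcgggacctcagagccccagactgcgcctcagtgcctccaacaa
Cxcl3, chr5:90785851-90786100, plus strand: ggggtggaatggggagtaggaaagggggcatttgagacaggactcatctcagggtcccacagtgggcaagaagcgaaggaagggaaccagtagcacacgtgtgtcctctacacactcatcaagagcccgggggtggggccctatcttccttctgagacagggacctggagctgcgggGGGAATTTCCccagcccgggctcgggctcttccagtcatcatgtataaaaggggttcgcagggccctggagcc
Cxcl9, chr5:92328080-92328329, minus strand: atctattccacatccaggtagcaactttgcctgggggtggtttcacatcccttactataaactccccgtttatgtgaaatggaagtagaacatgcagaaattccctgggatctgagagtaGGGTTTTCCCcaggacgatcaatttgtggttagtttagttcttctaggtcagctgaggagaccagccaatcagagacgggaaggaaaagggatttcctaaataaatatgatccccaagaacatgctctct
Cxcl10, chr5:92348890-92349139, minus strand: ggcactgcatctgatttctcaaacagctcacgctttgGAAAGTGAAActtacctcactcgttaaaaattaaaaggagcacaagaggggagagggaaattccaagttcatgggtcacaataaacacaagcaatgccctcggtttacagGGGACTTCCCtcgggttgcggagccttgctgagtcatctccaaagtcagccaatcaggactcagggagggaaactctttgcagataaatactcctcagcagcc
Both strands were searched, and every match to the exact NF-kB site is also a match to the looser form. The exact site stood in 23 of 27025 promoters (0.0851%), among them those of Cxcl1, Cxcl2 and Cxcl3, where its first base lay 71, 97 and 73 bases before the start. The looser form stood in 1082 of the 27025 promoters, among them 8 of the 22 members' promoters: Cxcl1, Cxcl2, Cxcl3, Cxcl9, Cxcl10, Ccl9, Ccl19 and Ccl20. The interferon element stood in 3.04% of promoters and in 3 of the members' (Cxcl10, Cxcl14 and Ccl19). TTCNNNGAA, the letters of a STAT site, stood in 7.18% of promoters and in 2 of the members' (Cxcl14 and Ccl17). A match is a run of letters and does not show that a factor binds there.

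The 12 count libraries held 10186522 to 13620975 reads in genes, and the CD8 libraries 14724754 to 26997371. Values of the count libraries are given as CPM, reads scaled to library size with TMM factors. The preparations were mixtures. Epcam, an epithelial surface marker, was at 960 to 1159 CPM in IEL, at 916 to 1291 CPM in LPL and at 2598 to 4865 CPM in tissue, and 5 exocrine pancreas transcripts summed to 3211 to 7186 CPM in LPL, against at most 8.70 CPM in IEL and tissue. The LPL preparations held little T cell RNA: 5 T cell markers summed to 1.04 and 6.67 CPM in the KO LPL libraries and to 49.0 and 8.63 CPM in the WT ones. The 4 B and plasma cell markers, mostly Jchain, summed to 2117 and 618 CPM in KO LPL and 5051 and 464 CPM in WT LPL. Their sums were 60.7 to 181 CPM in IEL and 72.4 to 664 CPM in tissue. WT LPL replicate 1 stood apart, with 7 macrophage and monocyte markers at 155 CPM in sum against 7.19 to 8.24 CPM in the other 3 LPL libraries. Replicate 2 of IEL held more T cell RNA than replicate 1 in both genotypes (380 against 179.3 CPM in KO, 527 against 161 CPM in WT). Replicate 2 of tissue held more fibroblast RNA (395 against 74.4 CPM in KO, 452 against 95.9 CPM in WT). The 3 neutrophil markers summed to 7.54 CPM in KO tissue replicate 2 and to at most 0.660 CPM in the other 11 libraries.

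The ligands differed between the kinds of sample: lymphocyte ligands such as Ccl5 and Xcl1 were higher in IEL, Ccl9 was higher in LPL, and Cxcl12 and Ccl8 were higher in whole tissue than in either preparation. The kinds of sample also differed in markers of gut position. The 3 proximal small intestine markers summed to 2195 to 3703 CPM in IEL and 175.4 to 408.6 CPM in LPL. In tissue they summed to 2.63 to 345 CPM, split by replicate number. Tissue replicate 1 held 345 CPM in KO and 150 CPM in WT, and replicate 2 held 2.63 and 3.22 CPM. The 3 distal markers summed to 238 to 394 CPM in IEL, 310 to 454 CPM in LPL and 5322 to 6660 CPM in tissue. The part of these position markers in the ligand differences was not tested. Of the 31 ligands, 22 passed the filter on low counts and 9 did not (Cxcl5, Cxcl15, Ccl1, Ccl2, Ccl7, Ccl12, Ccl17, Ccl19 and Cxcl17); as a gene could pass through 1 kind of sample alone, counts are over the 22. In IEL against tissue, 5 ligands were higher and 8 lower (edgeR quasi-likelihood test, Benjamini-Hochberg adjusted p under 0.05, over both genotypes, 4 against 4 libraries). Among all 14716 genes tested, 45% were called, 21.9% higher and 23.1% lower. The median log2 difference was -0.57 over the ligands, also with Ccl8 and Ccl11 at their bounds, and 0.05 over all genes. In LPL against tissue, 3 ligands were higher and 9 lower, where 55.3% of all genes were called, 27.3% higher and 28% lower; the median was -0.56 over the ligands and 0.03 over all genes. In IEL against LPL, 6 were higher and 4 lower, where 19.4% of all genes were called, 11.5% higher and 7.92% lower; the median was -0.76 over the 22 ligands, -0.59 over 21 with Ccl11 at its bound and without Ccl8, and -0.03 over all genes. When each of the 8 libraries was left out in turn, 9 of the 13 calls in IEL against tissue, 6 of the 12 in LPL against tissue and 2 of the 10 in IEL against LPL (Xcl1 and Ccl9) passed in all 8 fits. The number of ligands called in IEL against LPL was 6 when WT LPL replicate 1 or WT IEL replicate 1 was left out, 2 when KO LPL replicate 1 was, 3 when WT IEL replicate 2 was and 4 when KO IEL replicate 2 was.

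**Figure D1:**
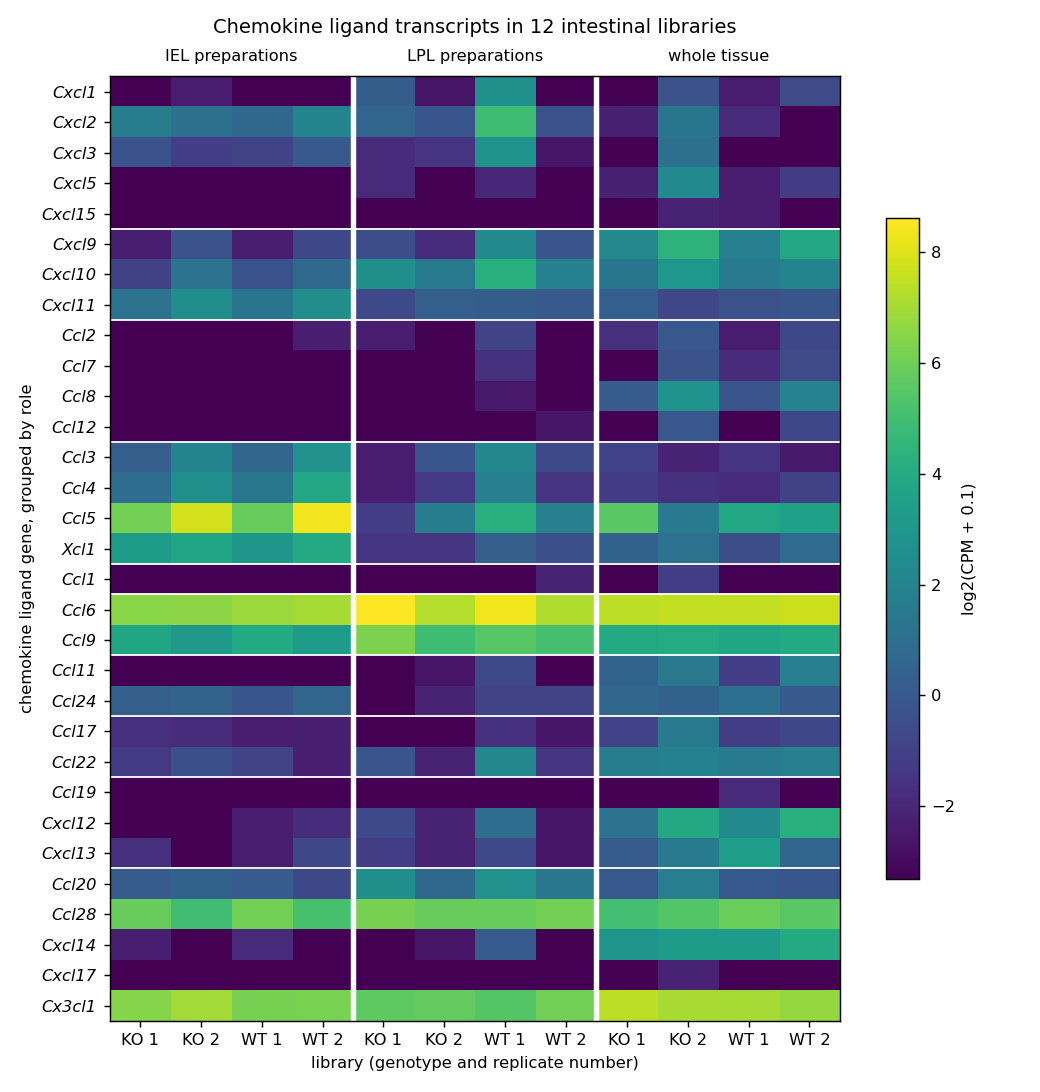
Each cell of the heat map is 1 gene in 1 library on a log2(CPM + 0.1) scale, with the 31 ligands grouped by role down the page and the KO and WT libraries of IEL, LPL and tissue from left to right. Ccl5 reached 57.9 to 339.7 CPM in IEL, the Cxcl1 to Cxcl3 block was brightest in WT LPL replicate 1, and rows should be compared within a gene because CPM are not corrected for transcript length.

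Ccl5, Ccl4, Ccl3 and Xcl1, ligands known from cytotoxic lymphocytes, were higher in IEL than in tissue. Ccl5 (chr11:83525778-83530518), a T cell attractant that memory CD8 T cells store, was at 70.7 and 222 CPM in KO IEL and at 57.9 and 339.7 CPM in WT IEL. Its tissue values were 46.6 and 2.87 CPM in KO and 13.8 and 11.1 CPM in WT. All 4 IEL libraries lay above all 4 tissue libraries, and the log2 difference was 3.28 (SE 0.96, edgeR adjusted p = 0.022); the call was lost without WT tissue replicate 1 or 2, WT IEL replicate 2 or KO IEL replicate 2 (adjusted p from 0.0595 to 0.0789). Within IEL, the summed T cell markers put the 4 libraries in the same order as Ccl5 did, highest in WT replicate 2 and lowest in WT replicate 1. In LPL, Ccl5 was at 0.346 and 3.09 CPM in KO and at 18.4 and 3.63 CPM in WT, and IEL exceeded LPL by 5.25 on the log2 scale (SE 1.07, edgeR adjusted p = 0.010; 0.0595 without KO LPL replicate 1).

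Ccl4 and Ccl3, inflammatory ligands released by activated T cells and macrophages, overlap each other on chromosome 11 in RefSeq, so their reads may be shared. Ccl4 was at 1.84 and 6.36 CPM in KO IEL and at 2.50 and 13.9 CPM in WT IEL, against 0.326 and 0.239 CPM in KO tissue and 0.173 and 0.412 CPM in WT tissue. The groups did not overlap, the log2 difference was 4.28 (SE 0.97, edgeR adjusted p = 0.0075), and the call held in all 8 left-out fits. Ccl3 was at 1.12 and 4.15 CPM in KO IEL and at 1.43 and 6.50 CPM in WT IEL, against 0.435 and 0.120 CPM in KO tissue and 0.259 and 0.0825 CPM in WT tissue. It too was higher in every IEL library (log2 3.82, SE 1.04, edgeR adjusted p = 0.016), but not past the threshold without replicate 2 of WT tissue, KO tissue, WT IEL or KO IEL (adjusted p from 0.0528 to 0.0616). Against LPL, Ccl4 passed with a log2 difference of 3.18 (SE 0.90, edgeR adjusted p = 0.038) and failed without WT LPL replicate 2, either KO LPL library, WT IEL replicate 2 or KO IEL replicate 2 (adjusted p from 0.0533 to 0.154). Ccl3 did not pass against LPL (log2 1.55, SE 0.88, edgeR adjusted p = 0.24), where WT LPL replicate 1 at 4.65 CPM lay inside the IEL range.

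Xcl1 (chr1:164931644-164935522), the ligand of XCR1 on cross-presenting dendritic cells, was the steadiest of this group. It was at 9.59 and 12.9 CPM in KO IEL and at 7.85 and 15.5 CPM in WT IEL. In tissue it was at 1.20 and 2.16 CPM in KO and at 0.604 and 1.73 CPM in WT, and in LPL at 0.260 and 0.247 CPM in KO and at 1.13 and 0.649 CPM in WT. IEL lay above both other kinds of sample with no overlap. Its log2 difference was 3.03 against tissue (SE 0.42, edgeR adjusted p = 0.00087) and 4.56 against LPL (SE 0.46, edgeR adjusted p = 0.00043), and both calls held in all 8 left-out fits. LPL against tissue gave -1.54 (SE 0.45, edgeR adjusted p = 0.018), which passed in 3 of 8 left-out fits and reached 0.092 without WT tissue replicate 2. Cxcl11 was also higher in IEL, at 2.14 and 5.90 CPM in KO and 2.41 and 5.80 CPM in WT, against 1.09 and 0.479 CPM in KO tissue and 0.690 and 0.825 CPM in WT tissue (log2 2.38, SE 0.52, edgeR adjusted p = 0.0061). RefSeq annotates mouse Cxcl11 in this build as a transcribed pseudogene, and it lies within the span of Art3. All 5 T cell markers were higher in IEL than in tissue and than in LPL, and their part in these differences was not tested.

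**Figure D2:**
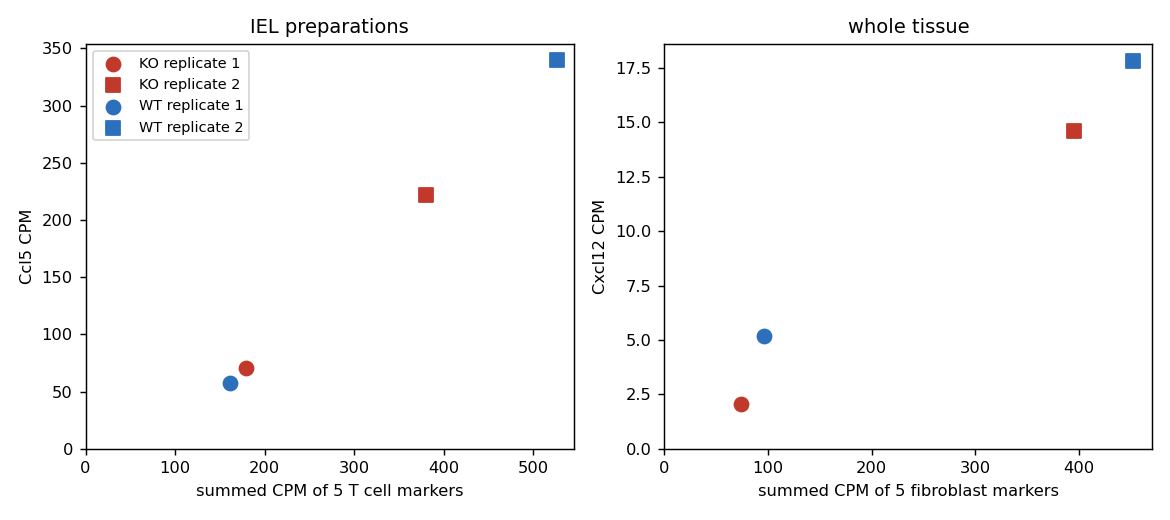
Each point is 1 library. Left, Ccl5 CPM against the summed CPM of 5 T cell markers in the 4 IEL libraries; right, Cxcl12 CPM against the summed CPM of 5 fibroblast markers in the 4 tissue libraries, with replicate 2 (squares) above replicate 1 (circles) on both axes in both genotypes.

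Cxcl12, Ccl8, Ccl11 and Cxcl14 were found in tissue and had 0 to 3 reads over the 4 IEL libraries. Cxcl12 (chr6:117168535-117181368), the ligand of CXCR4 that retains leukocytes in stromal niches, had 0 and 0 CPM in KO IEL and 0.0892 and 0.200 CPM in WT IEL, 3 reads in all. In tissue it was at 2.07 and 14.6 CPM in KO and at 5.18 and 17.8 CPM in WT. The IEL to tissue ratio was 0.0071 (95% exact interval from 0.00146 to 0.0209, counting error only), and the edgeR adjusted p was 0.0037. In LPL it was at 0.520 and 0.124 CPM in KO and at 1.80 and 0.0649 CPM in WT, below all tissue libraries, with a log2 difference of -4.18 (SE 1.02, edgeR adjusted p = 0.0093). Both calls held in all 8 left-out fits. Tissue replicate 2 had more Cxcl12 than replicate 1 in both genotypes, as it had more fibroblast RNA, and the part of the fibroblast RNA was not tested. It also had less RNA of the proximal markers than replicate 1, as given above, and their part was not tested either.

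Ccl8, a CC ligand of the monocyte-attractant cluster on chromosome 11, had no read in any IEL library. Its tissue values were 0.978 and 6.71 CPM in KO and 0.777 and 3.79 CPM in WT, so that IEL were at least 40.6-fold lower with a floor of 3 reads over the 4 IEL libraries (edgeR adjusted p = 0.0079). In LPL it had 1 read in all, and the LPL to tissue ratio was 0.0061 (95% exact interval from 0.00015 to 0.0346, edgeR adjusted p = 0.0057). Ccl11 (eotaxin), which attracts eosinophils through CCR3, likewise had no read in IEL. It was at 1.30 and 2.63 CPM in KO tissue and at 0.345 and 3.30 CPM in WT tissue, and IEL were at least 26.4-fold lower (edgeR adjusted p = 0.013). In LPL against tissue it passed at -4.11 (SE 1.23, edgeR adjusted p = 0.026) and failed without WT tissue replicate 2, KO tissue replicate 2 or either KO LPL library (adjusted p from 0.0636 to 0.117). Ccl24, another CCR3 ligand, was lower in LPL than in tissue (log2 -2.85, SE 0.60, edgeR adjusted p = 0.0037) and did not pass in IEL against tissue (log2 -0.25, SE 0.51, edgeR adjusted p = 0.71).

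Cxcl14, an epithelial and stromal ligand, was at 0.102 and 0 CPM in KO IEL and at 0.178 and 0 CPM in WT IEL, 3 reads in all, against 7.501 and 9.70 CPM in KO tissue and 9.32 and 15.8 CPM in WT tissue. The IEL to tissue ratio was 0.0066 (95% exact interval from 0.00135 to 0.0193, edgeR adjusted p = 0.0013). In LPL it was at 0 and 0.0618 CPM in KO and at 0.975 and 0 CPM in WT, lower than tissue by a log2 difference of -6.12 (SE 0.98, edgeR adjusted p = 0.00092). Cxcl13, which draws B cells to follicles through CXCR5, was lower than tissue in IEL (log2 -4.19, SE 1.04, edgeR adjusted p = 0.011) and in LPL (log2 -3.64, SE 0.96, edgeR adjusted p = 0.011; 0.0508 without WT tissue replicate 1 and 0.0503 without KO LPL replicate 2, both above the threshold). Its tissue values were uneven, 0.978 and 2.87 CPM in KO and 9.92 and 1.40 CPM in WT. Against tissue, all 5 fibroblast markers and 5 of 7 macrophage and monocyte markers were called lower both in IEL and in LPL, and the other 2 had log2 differences below 0; their part in these differences was not tested.

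**Figure D3:**
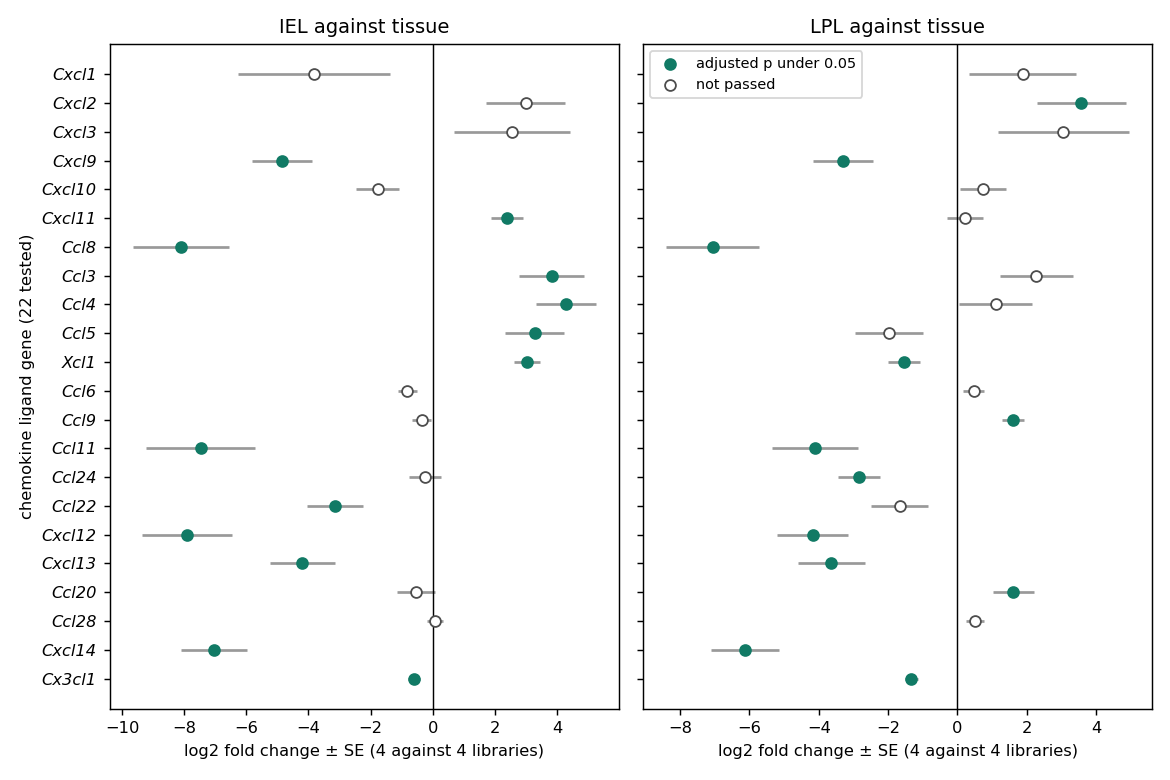
Points are log2 fold changes with standard errors for the 22 tested ligands in IEL against tissue (left) and LPL against tissue (right), filled where the adjusted p was under 0.05. Ccl3, Ccl4, Ccl5, Xcl1 and Cxcl11 lie to the right in IEL and Cxcl2, Ccl9 and Ccl20 in LPL; fitted values of genes with 0 to 3 reads in a group, such as Ccl8, Ccl11 and Cxcl12 in IEL, depend on the model's prior count and are not sizes of change.

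Cx3cl1 and Ccl28, both known from epithelial cells, had reads in all 12 libraries. Cx3cl1 (chr8:94772180-94782427), the membrane-anchored ligand of CX3CR1, was at 87.1 and 126 CPM in KO IEL and 72.0 and 75.2 CPM in WT IEL. It was at 50.2 and 53.3 CPM in KO LPL and 42.8 and 66.5 CPM in WT LPL, and at 174 and 131 CPM in KO tissue and 129 and 107 CPM in WT tissue. LPL lay below every tissue library (log2 -1.34, SE 0.19, edgeR adjusted p = 0.00044), a call that held in all 8 left-out fits. IEL were lower than tissue by 0.60 on the log2 scale (log2 -0.60, SE 0.18, edgeR adjusted p = 0.026) and overlapped it; this passed in 2 of 8 left-out fits and reached an adjusted p of 0.151 without KO IEL replicate 1. IEL exceeded LPL (log2 0.73, SE 0.19, edgeR adjusted p = 0.024) in 2 of 8 left-out fits, with 0.158 without KO IEL replicate 2. Ccl28 (chr13:119623819-119654359), which attracts IgA plasma cells through CCR10, was at 56.8 and 30.7 CPM in KO IEL, 68.1 and 35.5 CPM in WT IEL, 71.3 and 57.0 CPM in KO LPL, 57.5 and 70.6 CPM in WT LPL, 32.8 and 42.6 CPM in KO tissue and 62.0 and 47.8 CPM in WT tissue. Ccl28 passed no comparison of sample kinds, with log2 differences of 0.07 (SE 0.26) in IEL and 0.49 (SE 0.26, edgeR adjusted p = 0.13) in LPL against tissue.

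Ccl9, a mouse CCR1 ligand, was higher in LPL. It was at 76.9 and 30.2 CPM in KO LPL and 45.8 and 33.9 CPM in WT LPL. Against these, IEL held 13.5 and 8.66 CPM in KO and 15.8 and 9.70 CPM in WT, and tissue 15.7 and 16.3 CPM in KO and 13.5 and 15.6 CPM in WT. Every LPL library lay above every other library. The log2 difference was 1.60 in LPL against tissue (SE 0.31, edgeR adjusted p = 0.0023) and -1.96 in IEL against LPL (SE 0.31, edgeR adjusted p = 0.0034), and both calls held in all 8 left-out fits. The 45.8 CPM of WT LPL replicate 1, the LPL library with the most macrophage RNA, lay inside the range of the other 3 LPL libraries. The part of macrophage RNA was not tested for Ccl9. Its relative Ccl6 was at 90.3 and 94.4 CPM in KO IEL, 113 and 128 CPM in WT IEL, 393 and 156 CPM in KO LPL, 333 and 147.2 CPM in WT LPL, 172 and 185 CPM in KO tissue and 182 and 207 CPM in WT tissue. IEL were lower than LPL for Ccl6 (log2 -1.28, SE 0.32, edgeR adjusted p = 0.022), in 2 of 8 left-out fits only (0.069 without KO IEL replicate 2), and replicate 1 of LPL was the higher in both genotypes.

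Ccl20, the CCR6 ligand of the epithelium over lymphoid follicles, was at 5.98 and 1.54 CPM in KO LPL and 6.53 and 2.47 CPM in WT LPL. Tissue held 0.870 and 3.35 CPM in KO and 0.863 and 0.825 CPM in WT, and IEL 1.02 and 1.20 CPM in KO and 0.981 and 0.5003 CPM in WT. LPL exceeded tissue (log2 1.61, SE 0.59, edgeR adjusted p = 0.043) and IEL were lower than LPL (log2 -2.16, SE 0.61, edgeR adjusted p = 0.037). Neither was stable: the first passed in 3 and the second in 2 of 8 left-out fits, with 0.167 and 0.138 without KO LPL replicate 1. Ccl22, a CCR4 ligand of dendritic cells, was lower in IEL than in tissue (log2 -3.14, SE 0.90, edgeR adjusted p = 0.020; 0.067 without WT IEL replicate 2 and 0.073 without KO IEL replicate 1). Its tissue libraries were nearly level, at 3.15 and 3.71 CPM in KO and 2.93 and 3.46 CPM in WT, against 0.306 and 0.645 CPM in KO IEL and 0.446 and 0.1001 CPM in WT IEL.

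The neutrophil-attracting Cxcl1, Cxcl2 and Cxcl3, whose promoters with the shared 10 letters are shown above, were uneven within groups. Cxcl2 was at 1.39 and 0.803 CPM in KO LPL and at 30.1 and 0.714 CPM in WT LPL, against 0.109 and 2.39 CPM in KO tissue and 0.173 and 0 CPM in WT tissue. It passed in LPL against tissue (log2 3.57, SE 1.28, edgeR adjusted p = 0.039) and in 2 of 8 left-out fits, with an adjusted p of 0.28 and a log2 difference of 1.38 without WT LPL replicate 1. Cxcl3 had a similar order, 0.173 and 0.247 CPM in KO LPL and 6.68 and 0.0649 CPM in WT LPL, and 0 and 2.04 CPM in KO tissue against 0 and 0 CPM in WT tissue. Cxcl1 was at 1.04 and 0.0618 CPM in KO LPL and at 6.30 and 0 CPM in WT LPL. In each of the 3 genes WT LPL replicate 1 was the highest of all 12 libraries, as it was for Cxcl10, Ccl20 and Ccl22. Il1b, another NF-kB target, was also highest there at 60.02 CPM, and the 9 NF-kB response genes summed to 580 and 419 CPM in KO LPL and 994 and 466 CPM in WT LPL. Of these genes, Nfkbia, Nfkb2, Tnf and Icam1 were also highest there, while Tnfaip3 and Il6 were highest in IEL and Nfkb1 and Relb in tissue. WT LPL replicate 1 also held the most macrophage RNA of the LPL libraries. The part of NF-kB and of macrophage RNA in these values was not tested. In IEL the same 9 summed to 403 and 554 CPM in KO and 448 and 699 CPM in WT, and of the 8 tested 0 were called in KO against WT in any kind of sample.

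The interferon-induced Cxcl9 and Cxcl10 lie beside each other on chromosome 5. Cxcl9 was at 4.78 and 20.8 CPM in KO tissue and 3.45 and 13.7 CPM in WT tissue, against 0.102 and 0.737 CPM in KO IEL and 0.0892 and 0.5003 CPM in WT IEL. It was lower in IEL than in tissue with no overlap (log2 -4.86, SE 0.98, edgeR adjusted p = 0.0043), a call that held in all 8 left-out fits. In LPL it was lower than tissue (log2 -3.30, SE 0.88, edgeR adjusted p = 0.011; 0.053 without KO LPL replicate 2). Cxcl10 was at 6.06 and 2.97 CPM in KO LPL, 18.8 and 3.70 CPM in WT LPL, 0.408 and 2.21 CPM in KO IEL and 0.713 and 1.60 CPM in WT IEL. It was lower in IEL than in LPL (log2 -2.52, SE 0.71, edgeR adjusted p = 0.038), with a call in 2 of 8 left-out fits and an adjusted p of 0.113 without KO LPL replicate 1. Of 9 listed interferon gamma response genes, 1 was higher and 5 were lower in IEL than in tissue, and 0 were called in KO against WT.

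Between KO and WT, no ligand passed the test in any of the 3 kinds of sample. In tissue, 0 of 22 ligands and 0 of 14716 genes (0%) had an edgeR adjusted p under 0.05. At an unadjusted p under 0.05 there were 0 ligands and 463 genes (3.15%), and DESeq2 called 6 genes and 0 ligands. The median log2 difference was 0.12 over the ligands and -0.01 over all genes. KO and WT libraries did not overlap for 1 ligand that was lower in KO, Ccl28 (12.3% of all genes), and for 3 that were higher in KO, Cx3cl1, Ccl9 and Ccl20 (13.2% of all genes). Both Ccl28 values in KO tissue, given above, lay below both in WT (log2 -0.54, SE 0.36), and both Cx3cl1 values in KO tissue lay above both in WT (log2 0.37, SE 0.26), each with an edgeR adjusted p of 1.00. Ccl5 showed how far single libraries could lead: it was highest in KO tissue replicate 1 at 46.6 CPM and lowest in KO tissue replicate 2 at 2.87 CPM (log2 0.99, SE 1.29). The 5 T cell markers summed to 55.8 and 23.9 CPM in these 2 libraries and to 33.6 and 24.4 CPM in WT tissue. Their part in the Ccl5 values was not tested. In KO tissue replicate 2, Cxcl2, Cxcl3, Cxcl5 and Ccl17 were the highest of the 4 tissue libraries. So were ligands of other roles, among them Cxcl9, Cxcl10, Ccl8 and Xcl1, while Ccl5, Cxcl12 and Cx3cl1 were not. The same library held the neutrophil markers, whose part was not tested.

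In IEL, 0 of 22 ligands and 0 of 14716 genes (0%) were called by edgeR; 0 ligands and 120 genes (0.815%) had an unadjusted p under 0.05, and DESeq2 called 1 gene and 0 ligands. The median log2 difference was -0.07 over the ligands, -0.15 over 18 when 4 with no read in 1 or both genotypes were left out, and -0.02 over all genes. Ccl5 differed by -0.44 (SE 1.23) and Xcl1 by -0.05 (SE 0.53) on the log2 scale. For each of Ccl3, Ccl4, Ccl5 and Xcl1 the KO and WT values overlapped, and the replicate with more T cell RNA was the higher in both genotypes. Ligands with no overlap were Ccl6 and Cxcl12, lower in KO (12.3% of all genes), and Ccl20 and Cx3cl1, higher in KO (14.8% of all genes). Cx3cl1 thus lay higher in both KO libraries than in both WT libraries in IEL (log2 0.53, SE 0.26, edgeR adjusted p = 1.00) as in tissue, a difference that passed in neither. In LPL its KO and WT values overlapped (log2 -0.08, SE 0.26). The share of all genes that lay apart in both IEL and tissue was not counted.

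In LPL, 0 of 22 ligands and 0 of 14716 genes (0%) were called by edgeR, while 4 ligands and 448 genes (3.04%) had an unadjusted p under 0.05; DESeq2 called 1 gene and 0 ligands. The 4 were Xcl1, Ccl4, Cxcl2 and Ccl24, all with lower fitted values in KO and an edgeR adjusted p of 1.00. Xcl1, with its values above, differed by -1.76 on the log2 scale (SE 0.68), and both KO libraries lay below both WT ones. Ccl24 was at 0 and 0.124 CPM in KO LPL and 0.450 and 0.454 CPM in WT LPL (log2 -2.53, SE 0.95), with 2 reads in all in KO and 13 in WT. Ccl4 was at 0.0866 and 0.309 CPM in KO LPL and 3.53 and 0.260 CPM in WT LPL (log2 -3.11, SE 1.35), and here WT replicate 2 lay between the KO values. For Cxcl2 WT replicate 2 lay below both KO values (log2 -3.81, SE 1.57), and without WT LPL replicate 1 the difference turned to 0.59 (SE 1.39).

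This pattern ran through the list and rested on 1 library. Of the 22 ligands, 19 had a log2 difference below 0, with a median of -2.27 over the ligands (-2.44 over 21, leaving out Ccl8 with its single read) and 0.01 over all genes. Over the same 22 ligands the median was 0.43 without WT LPL replicate 1, with 9 below 0. It was -2.76 without WT LPL replicate 2, -1.80 without KO LPL replicate 1 and -1.68 without KO LPL replicate 2. The whole of the macrophage list (7 of 7), the T cell list (5 of 5) and the receptor list (18 of 18 tested) had differences below 0 in the same comparison, and 0 of them were called; their part in the ligands' values was not tested. Ligands whose KO and WT libraries did not overlap were 4, all lower in KO (Xcl1, Ccl5, Cxcl9 and Ccl24), where 8.62% of all genes were lower without overlap; 0 were higher, against 9.89%. Ligands at higher CPM showed no such gap: Ccl28 differed by 0.00 (SE 0.36), Cx3cl1 by -0.08 (SE 0.26), Ccl6 by 0.19 (SE 0.44) and Ccl9 by 0.42 (SE 0.42). The KO difference itself was not shown to vary between kinds of sample: 0 ligands and 0 genes (0%) passed for LPL minus tissue, IEL minus tissue or IEL minus LPL by edgeR, with 3, 0 and 0 ligands and 1.96%, 0.836% and 0.761% of genes at an unadjusted p under 0.05, and 0 genes by DESeq2. The 3 ligands were Cxcl2, Cxcl3 and Xcl1.

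**Figure D4:**
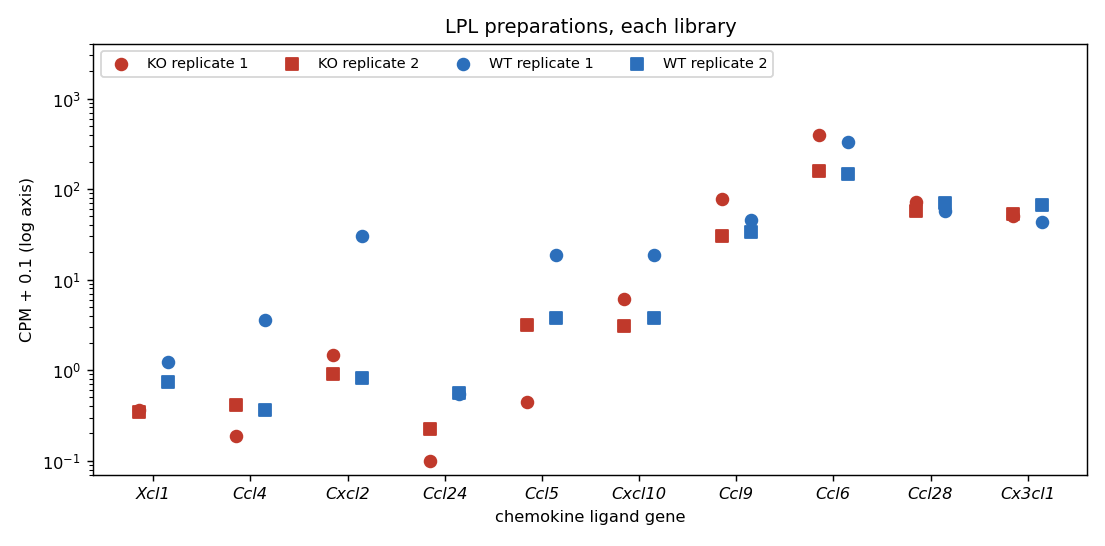
Each point is 1 LPL library, KO in red left of WT in blue, on a log axis of CPM + 0.1, for 10 ligands. WT replicate 1 (blue circle) is the highest point for Xcl1, Ccl4, Cxcl2, Ccl5 and Cxcl10, while the points of Ccl28 and Cx3cl1 lie together.

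In the CD8 IELs, Ccl5 and Ccl4 had at least 1126 normalised counts in every library. Ccl3 and Xcl1 were each at 0 in 1 unstimulated library, and most other ligands had a mean under 5. CD8 values are the authors' normalised counts. Cd8a was at 20432 to 25190 in the unstimulated set and at 35297 to 57820 in the IL-15 set, and the neutrophil markers were at 0 throughout the IL-15 set. Of 31 ligands, 7 had a mean of at least 5 normalised counts in the unstimulated set (Ccl5, Ccl4, Ccl3, Xcl1, Cxcl10, Ccl1 and Cxcl12) and 8 in the IL-15 set (with Ccl6 and Ccl9 in place of Cxcl12); 1 and 8 were at 0 in all 6 libraries. Cx3cl1 was at most 10.9 normalised counts and Ccl28 at most 2.79 in any CD8 library. The epithelial markers were uneven in the IL-15 set. Epcam was at 668 to 3071 and Cdh1 at 1230 to 2161, while Vil1, Krt20 and Krt8 were at 1.87 to 116. The tables had been normalised apart, so levels are not compared between them.

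In unstimulated CD8 IELs, Ccl5 was at 211210, 259807 and 246626 normalised counts in KO and at 272945, 169135 and 204549 in WT. The groups overlapped, and the log2 difference was 0.17 (SE 0.17, limma adjusted p = 0.90). Ccl5 alone took 1.17% ± 0.12 of reads in genes in KO and 1.18% ± 0.12 in WT (SD, n = 3 each). Ccl4 was at 6820, 3601 and 1482 in KO and at 1707, 2723 and 2743 in WT, with KO at both ends of the range (log2 0.50, SE 0.76, limma adjusted p = 0.92).

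The other lymphocyte ligands of this set were present in some libraries and nearly missing in others. Xcl1 was at 203, 0 and 270 normalised counts in KO and at 526, 696 and 231 in WT. Ccl3 was at 484, 426 and 257 in KO and at 562, 369 and 0 in WT. Cxcl10 was at 718 in KO replicate 2 and at 0 to 21.1 in the other 5, and Ccl1, a CCR8 ligand of activated T cells, was at 484 in KO replicate 2 and at 0 to 3.99 in the other 5. This was general in the unstimulated set: of 9193 genes with a mean of at least 100 normalised counts, 5675 (61.7%) were under 10 in at least 1 of 6 libraries, against 98 of 9357 (1.05%) in the IL-15 set. Folds of these 4 genes therefore describe single libraries, and no ligand was called. With limma, 0 of 7 ligands and 0 of 17208 genes (0%) passed; 0 ligands and 575 genes (3.34%) had an unadjusted p under 0.05, edgeR on the recovered reads called 0 genes, and no ligand had KO and WT libraries that did not overlap (4.71% of genes lower and 3.81% higher in KO without overlap).

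In the IL-15 set, Ccl5 was at 186798, 178247 and 103988 normalised counts in KO and at 255598, 232410 and 210902 in WT. All 3 KO libraries lay below all 3 WT libraries, with a log2 difference of -0.62 (SE 0.22, limma adjusted p = 0.42), and 9.16% of all genes were lower in KO without overlap. It did not pass the adjusted threshold under any alternative, whose adjusted p ran from 0.19 to 0.86, and without KO replicate 3 the difference was -0.35 (SE 0.11). Its share of reads was 0.922% ± 0.253 in KO and 1.26% ± 0.105 in WT (SD, n = 3 each). The 5 T cell markers also summed lower in KO, at 135380, 149611 and 113286 against 157106, 155702 and 169720 in WT, and their part in the Ccl5 difference was not tested.

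The other ligands of the IL-15 set overlapped between genotypes, and Ccl3, Ccl4, Xcl1, Cxcl10 and Ccl1 had values above 0 in all 6 libraries. Ccl4 was at 1661, 2055 and 1644 normalised counts in KO and at 4581, 2177 and 1126 in WT (log2 -0.33, SE 0.45). Ccl3 was at 285, 319 and 242 in KO and at 722, 525 and 133 in WT (log2 -0.40, SE 0.58). Xcl1 was at 1221, 1469 and 2533 in KO and at 1522, 1089 and 1260 in WT (log2 0.37, SE 0.28). For Ccl3 and Ccl4 WT replicates 1 and 2 were the highest and WT replicate 3 the lowest library, so the WT spread took in all KO values. Cxcl10 was at 182, 104 and 253 in KO and at 171, 222 and 64.3 in WT, and Ccl1 at 139.5, 45.4 and 390 in KO and at 418, 42.4 and 131 in WT; neither differed beyond its spread (log2 0.32, SE 0.53 and 0.03, SE 0.99). With limma, 0 of 8 ligands and 0 of 16371 genes (0%) passed, 1 ligand (Ccl5) and 1841 genes (11.2%) had an unadjusted p under 0.05, and edgeR on the recovered reads called 0 genes; 0 ligands were higher in KO without overlap (11.1% of genes).

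**Figure D5:**
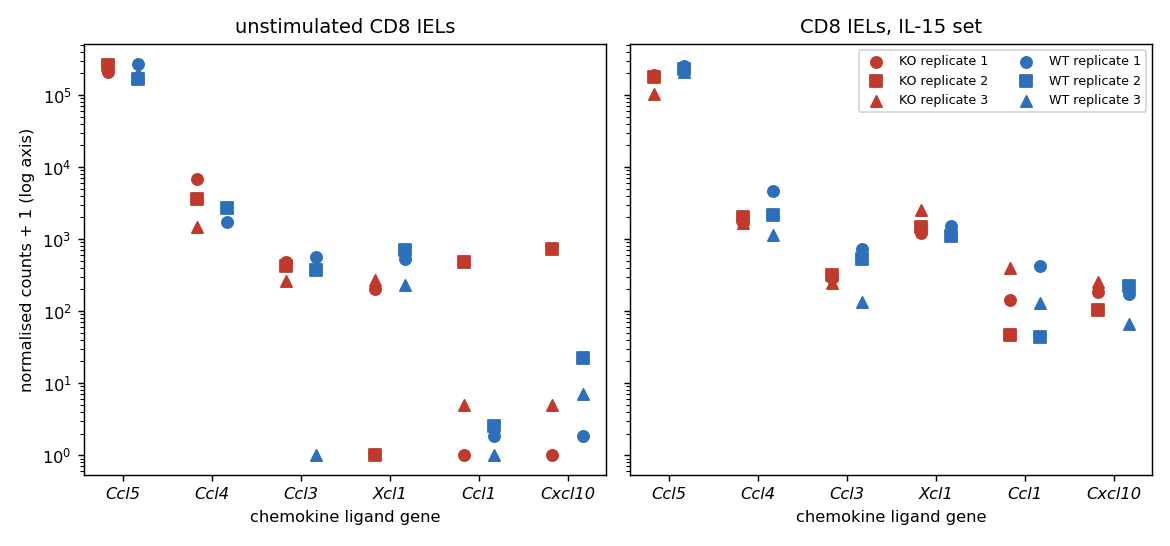
Each point is 1 CD8 IEL library, KO in red left of WT in blue, on a log axis of normalised counts + 1, with the unstimulated set on the left and the IL-15 set on the right. In the IL-15 set the 3 KO points of Ccl5 lie below the 3 WT points, and in the unstimulated set Ccl1 and Cxcl10 are high in KO replicate 2 alone.

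Chemokine receptors were listed beside the ligands. Of 23 receptor genes, 18 were tested in the 12 count libraries. In IEL against tissue 6 were higher (Ccr3, Ccr9, Ccrl2, Cxcr3, Cxcr4 and Cxcr6) and 2 lower (Ackr3 and Ackr4), in LPL against tissue 3 were higher (Ccr7, Ccr10 and Ccrl2) and 2 lower (Ackr4 and Cx3cr1), and in IEL against LPL 1 was higher (Ccr9) and 1 lower (Ccr10), where 45%, 55.3% and 19.4% of all genes were called in either direction in these 3 comparisons. Ccr9, the gut-homing receptor for Ccl25, was at 15.7 and 39.0 CPM in KO IEL and 12.1 and 56.3 CPM in WT IEL, against 4.35 and 2.87 CPM in KO tissue and 2.59 and 2.72 CPM in WT tissue (log2 3.30, SE 0.71, edgeR adjusted p = 0.0061). In KO against WT, 0 receptors were called in tissue, LPL or IEL; in LPL 10 had an unadjusted p under 0.05, and the median was -3.08, with a receptor sum of 27.6 and 28.2 CPM in KO and 276 and 26.0 CPM in WT. In CD8 IELs Cxcr6, Cxcr3 and Ccr9 were the receptors at the highest values, with Cxcr6 at 30725, 31415 and 33510 normalised counts in KO and 46517, 39962 and 16037 in WT without stimulation, and 0 of 8 and 0 of 12 tested receptors were called in the unstimulated and IL-15 sets by limma.

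Of 6 further chemokine ligands outside the list, 4 were tested. Ccl25 (TECK), the epithelial ligand of CCR9, was at 556 and 484 CPM in KO IEL, 436 and 492 CPM in WT IEL, 311 and 383 CPM in KO LPL, 216 and 342 CPM in WT LPL, 697 and 446 CPM in KO tissue and 595 and 528 CPM in WT tissue, and was lower in LPL than in tissue (log2 -0.86, SE 0.21, edgeR adjusted p = 0.0066). Cxcl16, the transmembrane ligand of CXCR6, was higher in LPL than in tissue (log2 1.23, SE 0.28, edgeR adjusted p = 0.0055) and lower in IEL than in LPL (log2 -2.01, SE 0.29, edgeR adjusted p = 0.0022). Pf4 was the other of the 2 called lower in IEL than in tissue beside Cxcl16. None of the 4 was called in KO against WT by edgeR, and 0 had an unadjusted p under 0.05.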

How the data were processed

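RNA-seq of 24 of the series' 36 samples was used; 6 CD8ab libraries after gluten and 6 RAP libraries were not analysed here. The members and gene lists were chosen with earlier results of these data known. The 12 count files hold raw counts per gene that the authors made from reads aligned with HISAT2, per the file headers. TopHat, featureCounts and mm10 are named as well, per the submitters' processing notes. Whether counting used strand is not given in the sources used here, so Ccl3 and Ccl4, which overlap, and Cxcl10 and Cxcl11, which lie within Art3, may share reads. The CD8 tables hold a signal per gene that the authors made by dividing counts by size factors (normalised counts); DESeq2 and STAR are among the tools named, per the submitters' processing notes; 100% of values above 0 came out as whole reads within 0.01. Each table was tested apart.

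Symbols were matched for 25275 of 27179 count IDs (99.17% of reads) and 51486 of 78275 CD8 IDs. No 2 of the 12 libraries were identical. Counts went through edgeR 4.0.16 (R 4.3.3; filterByExpr, TMM, 1 quasi-likelihood fit over 6 groups), with DESeq2 1.42.0 as an alternative. CD8 values went through limma 3.58.1 on log2(value + 1), leaving out genes whose mean was under 5, a scale that understates folds of low genes. P-values were adjusted by Benjamini-Hochberg over all genes, at 0.05. Genes were named where they had an unadjusted p under 0.05 in KO against WT, where a mean of at least 5 went with no overlap between KO and WT, where they were among the highest means of a sample kind, or where they led the calls between sample kinds. Floors use 3 reads over a group and intervals are exact at 95%; both cover counting error only. Statistics were tested on simulated data. Alternatives were other size factors, filters, pseudocounts (0.5 and 5), libraries in the fit, the replicate number as a block, and each replicate left out.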

Additional observations from a re-analysis of the deposited data

Results flagged for a closer look

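In 44 sets, each 1 ligand in the 4 libraries of a sample kind, 1 library lay far from the other 3 in 10. Chance flags about 1 in 20 groups, but these sets were those with a mean of at least 1 CPM, which a single high library could supply, so that rate does not hold here. WT LPL replicate 1 was that library for 7 ligands: Cxcl1 at 6.30 CPM, Cxcl2 at 30.1 CPM, Cxcl3 at 6.68 CPM, Cxcl9 at 5.03 CPM, Ccl3 at 4.65 CPM, Ccl4 at 3.53 CPM and Ccl22 at 4.65 CPM. The same library held the highest sums of macrophage, T cell and receptor transcripts among the LPL libraries, and their part in these values was not tested. KO tissue replicate 2 was that library for 3 ligands: Cxcl5 at 5.03 CPM, Ccl17 at 2.99 CPM and Ccl20 at 3.35 CPM. It was also the library with the neutrophil markers, whose part was not tested.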

How the results depend on the processing

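Between KO and WT, DESeq2 called 6 genes in tissue, 1 in LPL and 1 in IEL, none of them a ligand, where edgeR called 0. Leaving out 1 library gave 0 to 3 genes in tissue (3 without KO replicate 1), 0 to 4 in LPL (4 without WT replicate 2) and 0 to 1 in the IL-15 CD8 set (1 without WT replicate 3), which had 3 without the filter on low values. In IEL against LPL the calls were 1267 to 2561 genes and 2 to 10 ligands with 1 library left out, against 2856 genes and 10 ligands with all. Without WT LPL replicate 1, the KO difference of Cxcl2 in LPL turned to 0.59, and over the 4 libraries left out in turn it ran from -4.79 to 0.59. With the replicate block, IEL against LPL gave 5731 genes and 12 ligands, IEL against tissue 16 ligands in place of 13, and LPL against tissue 15 in place of 12. Between KO and WT the block called 0 genes in any set, while genes at an unadjusted p under 0.05 went to 1727 in tissue (463 without the block) and 569 in IEL (120 without it), with 1 and 2 ligands among them. The labels do not say that a number marks a shared mouse, and 2 libraries a group give only 1 independent value of the check: residuals of same-numbered libraries had correlations of 0.638 (tissue), 0.301 (LPL) and 0.465 (IEL) with 2 libraries a group, and of -0.057 to 0.001 in the CD8 sets. The cause of these shifts was not tested. Depth limits the ligands with 0 to 3 reads in a group, whose folds are given as bounds or with counting intervals.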
